A study of Mus musculus with 12 samples.

Results

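The 10 genes described here encode the core of calcium cycling in cardiomyocytes: the channel that admits trigger calcium (Cacna1c), the release channel and its partners in the sarcoplasmic reticulum (Ryr2, Casq2, Trdn, Hrc), the protein that holds both membranes together (Jph2), the pump, its inhibitor and the exchanger that remove calcium (Atp2a2, Pln, Slc8a1), and the kinase that tunes them (Camk2d). They were taken by name, as the rows of the raw count table whose Ensembl identifier carries one of these symbols in GENCODE M21. All 10 were found among the 26921 genes of the table, and all 10 passed the filter on low values that left 11225 genes for testing.

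RNA was sequenced from the left ventricle of mice aged 16 weeks, in 6 WT and 6 cmGch1 KO libraries. WT mice carried 2 floxed Gch1 alleles (Gch1 flox/flox) and no Cre, and cmGch1 KO littermates carried the same floxed alleles with a heterozygous Cre transgene driven by the cardiomyocyte promoter α-MHC. Gch1 encodes GTP cyclohydrolase 1, which makes the cofactor tetrahydrobiopterin (BH4), and the comparison asks how the loss of this synthesis in cardiomyocytes changes transcripts of the ventricle. All cmGch1 KO libraries carry Cre and no WT library does, so Cre itself and the deletion cannot be told apart, and the other cells of the ventricle keep an intact floxed gene.

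With each beat, calcium entering through L-type channels opens ryanodine receptors at the dyad, where the sarcolemma and the sarcoplasmic reticulum lie close together, and the released calcium drives contraction. Relaxation follows as the SERCA pump returns calcium to the store and the sodium-calcium exchanger moves it out of the cell. Phospholamban restrains the pump until it is phosphorylated, and calsequestrin holds calcium inside the store beside the release channel.

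The targeted gene followed the labels. Gch1 ranged from 9.27 to 12.1 cpm (counts scaled to library size, with TMM factors) in WT (median 10.8), and from 3.92 to 6.32 cpm in cmGch1 KO (median 5.56). The groups did not overlap, and the log2 fold change was -0.96 (SE 0.11, FDR = 6.88e-04 by the quasi-likelihood test of edgeR, Benjamini-Hochberg adjusted). Libraries held between 19921398 and 37917806 counts. The labels give no sex. Replicates 2 and 3 of cmGch1 KO had 86.7 and 99.1 cpm of Xist and 0 counts of 4 Y-linked genes. The other 10 libraries had at most 0.234 cpm of Xist and 167 to 192 cpm of the Y-linked genes together. All 6 WT libraries are among these 10, so any difference between the sexes is partly confounded with genotype. Replicates 2 and 3 of cmGch1 KO also had the lowest shares of mitochondrially encoded counts (14.9% and 16.1%, against 18.3% to 22.9%).

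The calcium cycling transcripts were among the most abundant of the ventricle. Together they took between 1.99% and 2.76% of all counts of a library, and each lay between the 92.4th and the 99.9th percentile of the tested genes by mean level. Per kilobase of annotated exon, WT libraries had 2523 ± 285 cpm per kb of Atp2a2 (SD, n = 6), the SERCA2 pump, and 2271 ± 90.5 of Pln, phospholamban, and the WT ranges of these 2 genes overlapped. Next came Hrc at 468 ± 46.7 and Casq2 at 359 ± 23.8 cpm per kb, whose ranges also overlapped, and then Jph2 at 183 ± 10.4, apart from its neighbours. Trdn (36.2 ± 1.3) and Ryr2 (31.4 ± 9.88) overlapped, as did Cacna1c (9.75 ± 1.78) and Slc8a1 (9.54 ± 0.554), and Camk2d was lowest at 6.55 ± 0.724 cpm per kb. Lengths are unions of all annotated exons, 28790 bases for Ryr2 and 22493 for Camk2d against 2566 for Hrc, so genes with long or alternative exons that the heart does not use come out too low on this scale.

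None of the 10 genes passed the test between genotypes after adjustment over all tested genes. By edgeR 0 of 10 had an FDR under 0.05, where 1.12% of all tested genes did (0.677% higher and 0.445% lower in cmGch1 KO). At an unadjusted p under 0.05, 1 gene was higher (Casq2) and 1 lower (Trdn), where 11.5% of tested genes passed in either direction. By the Wald test of DESeq2 1 gene was called, Casq2, against 3.32% of all genes. With 1 surrogate variable as a covariate 2 were called, Casq2 higher and Cacna1c lower, against 5.67%. None was called with a sex-linked covariate (0.552% of all genes), without the 2 libraries of high Xist (0.336%), or with the replicate number as a block (1.67%). Fitted values were lower in cmGch1 KO for 7 genes and higher for 3. Over all tested genes 5984 were lower and 5241 higher. The median log2 fold change was -0.14 for the 10 genes, against -0.01 for all tested genes. For none of the 10 genes were the ranges of the genotypes apart, as they were for 1.87% of tested genes.

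Marker transcripts of the cell types were set beside these values. The summed level of 6 sarcomere markers (Myh6, Actc1, Tnnt2, Tnni3, Myl2, Myl3) lay between 55394 and 58816 cpm in WT and between 49930 and 54019 cpm in cmGch1 KO, with no overlap. Of the 6, 5 had a fitted value below 0, none was called, and their median was -0.17. The summed level of 6 macrophage markers (Cd68, Csf1r, Adgre1, Cd163, Mrc1, C1qa) lay between 114 and 133 cpm in WT and between 136 and 153 cpm in cmGch1 KO, also apart. Of these 0 were called and none was at 0, with 5 fitted above 0 and 1 below, Cd163 at -0.05. How often sums of 6 genes part in this way over all tested genes was not computed, so neither separation has a share beside it. Ranges overlapped for the summed endothelial (678 to 836 and 742 to 867 cpm), fibroblast (789 to 1055 and 891 to 1096) and smooth muscle lists (858 to 968 and 881 to 1019), with all 6 fibroblast markers fitted above 0 and none of them called. The smooth muscle markers were divided, 3 fitted above 0 and 3 below, with a median of 0.03. Of these 1 was called, Acta2, the smooth muscle actin, from 113 to 144 cpm in WT and from 162 to 242 cpm in cmGch1 KO, with no overlap (log2 fold change 0.66, Benjamini-Hochberg FDR = 0.00672 by edgeR). Tagln (-0.40) and Myh11 (-0.24) had fitted values below 0. Of the atrial markers only Nppa, the natriuretic peptide gene, was called, at 1.53 (SE 0.3, Benjamini-Hochberg FDR = 0.024 by edgeR). Its WT mean was 152 cpm, against a cmGch1 KO mean of 439. The other genes of the atrial list were fitted at 0.17 (Myl4), 0.11 (Myl7), 0.11 (Stk39) and -0.36 (Sln), with edgeR FDR from 0.685 to 0.981 after Benjamini-Hochberg adjustment. Stk39 ran from 73.2 to 100 cpm in WT, against 3.24 to 120 for Myl7 and 3.7 to 113 for Myl4, so it did not vary as these 2 did. The summed level of the list, Nppa and Stk39 included, was 173 to 645 cpm for WT libraries and 343 to 841 for those of cmGch1 KO, with overlap. In bulk tissue, fewer cardiomyocytes and less RNA per cardiomyocyte cannot be told apart, and the part of cell composition in the values below was not tested.

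**Figure D1:**
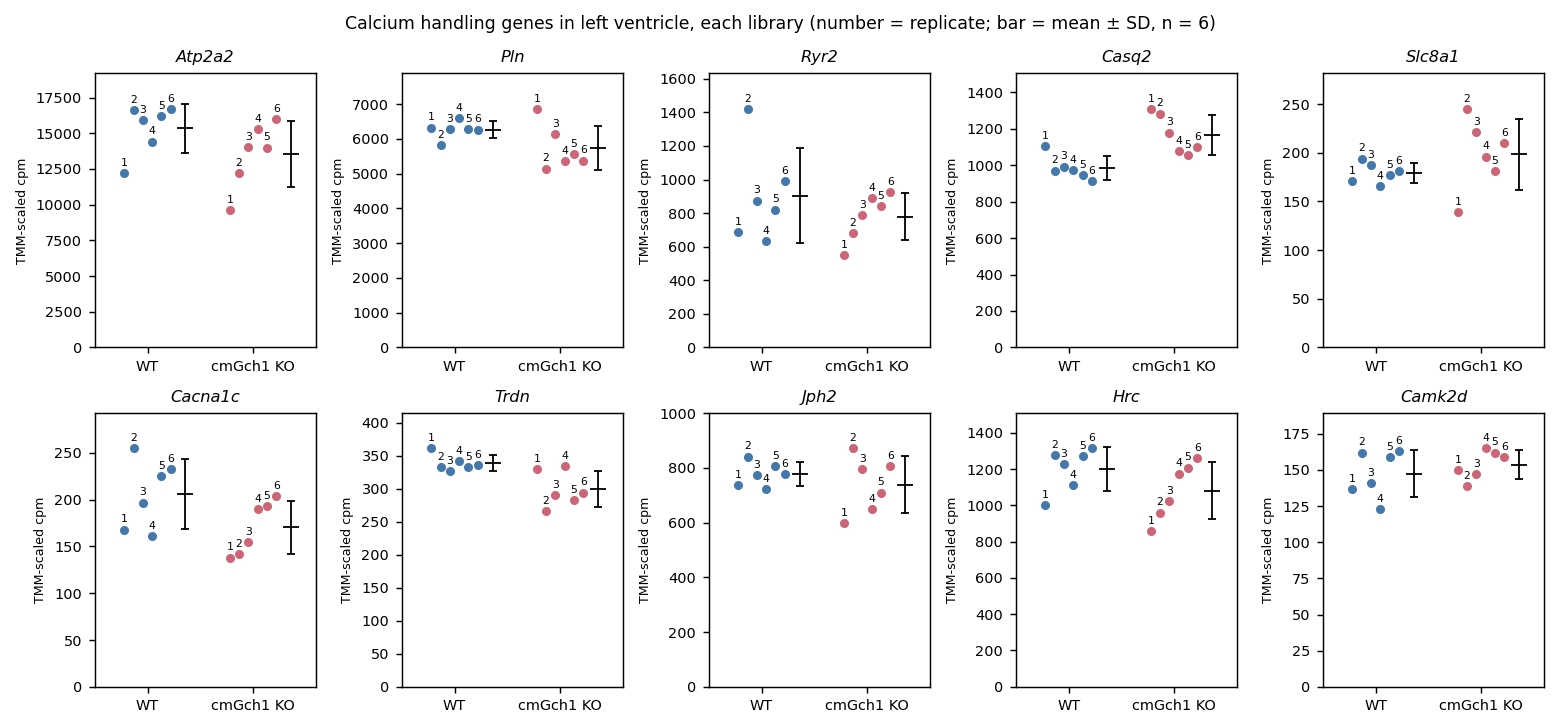
TMM-scaled cpm (y axes, each from 0) of the 10 calcium cycling genes in 6 WT and 6 cmGch1 KO libraries. Points are libraries with their replicate number, and the bar beside them is the mean ± SD. The genotypes overlap in every panel, Casq2 sits highest in cmGch1 KO replicates 1, 2 and 3, and Atp2a2, Ryr2, Slc8a1, Cacna1c, Jph2 and Hrc have their lowest point in cmGch1 KO replicate 1.

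Cacna1c, the pore of the cardiac L-type calcium channel, lies on chromosome 6 (GRCm38 chr6:118587240-119196418, minus strand). It ranged from 161 to 255 cpm in WT (median 211) and from 138 to 204 cpm in cmGch1 KO, with a median of 172. All 6 cmGch1 KO libraries were below the WT median and 3 were below every WT library. Means were 207 ± 37.8 and 170 ± 28.6 cpm (SD, n = 6 each). The log2 fold change of -0.28 (SE 0.13, 95% interval -0.56 to 0.01) had a Benjamini-Hochberg FDR of 0.45 by edgeR. With a surrogate variable the value was almost unmoved at -0.27, but its SE was 0.05 and the FDR 0.00943. Without the 2 libraries of high Xist it was -0.18.

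Ryr2, the ryanodine receptor through which the store releases calcium, lies at chr13:11553102-12106945 on the minus strand. Its values ran from 631 to 1420 cpm in WT (median 848) and from 549 to 924 cpm in cmGch1 KO (median 816). WT replicate 2 stood far above the other libraries and WT replicate 4 was the lowest of its group, so the WT coefficient of variation was 31.5%, the largest among the 10 genes. The fitted log2 fold change of -0.21 (SE 0.18, interval -0.6 to 0.18, edgeR FDR = 0.752 after Benjamini-Hochberg adjustment) became -0.04 when WT replicate 2 was left out.

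Casq2, cardiac calsequestrin, binds calcium inside the sarcoplasmic reticulum and lies at chr3:102086415-102146514 on the plus strand. In WT it ranged from 914 to 1103 cpm (median 972) and in cmGch1 KO from 1053 to 1308 cpm with a median of 1140. Every cmGch1 KO library was above the WT median and 3 were above every WT library, with WT replicate 1 alone reaching into the cmGch1 KO range. Means were 983 ± 65 and 1166 ± 109 cpm (SD, n = 6 each). This was a log2 fold change of 0.25 (SE 0.07, interval 0.09 to 0.41). The exact permutation test, two-sided, gave p = 0.00866, but by edgeR, with Benjamini-Hochberg adjustment over all genes, the FDR was 0.16. Of the 10 genes it had the smallest p.

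Casq2 kept its direction and most of its size wherever it was refitted, between 0.21 and 0.32 over 25 alternatives. It was at 0.21 without the 2 libraries of high Xist and at 0.25 without both libraries of number 1. Its adjusted p over these alternatives ran from 0.00549 to 0.534, under 0.05 with the DESeq2 Wald test (0.031) and with the surrogate variable (0.00549), and above it in the other 23.

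Trdn, triadin, anchors calsequestrin to the release channel and lies at chr10:33080554-33476709 on the plus strand. It was the steadiest of the 10 genes in WT, from 327 to 361 cpm (median 334) and ran from 266 to 334 cpm in cmGch1 KO with a median of 292. Means were 339 ± 12.2 and 299 ± 26.7 cpm (SD, n = 6 each). The lower level in cmGch1 KO (log2 fold change -0.18, SE 0.07, interval -0.32 to -0.04, exact permutation p = 0.0173) had an FDR of 0.274 by edgeR with Benjamini-Hochberg adjustment. It lay between -0.21 and -0.11 over the alternatives and never passed.

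Because Casq2 and Trdn were the 2 genes with an unadjusted p under 0.05, in opposite directions, their ratio is given as a description chosen after the values were seen, with no test. Counts of Casq2 were 2.73 to 3.05 times those of Trdn in WT, with a median of 2.88, and 3.22 to 4.82 times in cmGch1 KO, with a median of 3.86. The ranges were apart, which the choice of 2 genes with low p in opposite directions favours. The 3 highest ratios were those of cmGch1 KO replicates 1, 2 and 3, the libraries with the most Casq2. Replicates 2 and 3 are the libraries of high Xist. The ratio sets 2736 bases of annotated exon against 9352. Transcripts of long exon length, described below, were low in replicates 1 and 2 (-0.22 and -0.15) and near the mean in replicate 3 (-0.01). The part of either in this ratio was not tested.

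Hrc, the histidine-rich calcium-binding protein of the store, lies at chr7:45335290-45338974 on the plus strand. It ranged from 1002 to 1315 cpm in WT (median 1248) and from 858 to 1259 cpm in cmGch1 KO (median 1098). The groups shared most of their range, and the log2 fold change was -0.15 (SE 0.10, edgeR FDR = 0.656 after Benjamini-Hochberg adjustment). Jph2, junctophilin 2, tethers the sarcoplasmic reticulum to the transverse tubule and lies at chr2:163336242-163397993 on the minus strand. It ran from 724 to 842 cpm in WT (median 777) and, more widely, from 598 to 872 cpm in cmGch1 KO (median 753), so that the highest and the lowest library were both of cmGch1 KO. Its log2 fold change was -0.07 (SE 0.09, edgeR FDR = 0.855 after Benjamini-Hochberg adjustment) and changed sign to 0.01 with scaling by library size alone, under which the median of all tested genes was 0.07.

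The genes of calcium removal also overlapped. Atp2a2, which encodes the pump of the store, lies at chr5:122453513-122502225 on the minus strand and alone took 1.49% of WT counts. Its level ran from 12229 to 16696 cpm in WT (median 16051) and from 9625 to 16003 cpm in cmGch1 KO (median 14020). Every cmGch1 KO library was below the WT median, but 4 lay within the WT range, whose lower end was set by WT replicate 1. The log2 fold change was -0.18 (SE 0.12, interval -0.44 to 0.08, edgeR FDR = 0.651 after Benjamini-Hochberg adjustment). It was -0.10 without cmGch1 KO replicate 1, the library with the least Atp2a2.

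Pln lies at chr10:53337667-53345987 on the plus strand and encodes phospholamban, the small membrane protein that inhibits the pump. It ranged from 5824 to 6601 cpm in WT (median 6287) and from 5146 to 6863 cpm in cmGch1 KO (median 5467). Of the cmGch1 KO libraries 4 were below every WT library, while replicate 1 was the highest of all 12. The log2 fold change was -0.13 (SE 0.08, interval -0.3 to 0.04, edgeR FDR = 0.613 after Benjamini-Hochberg adjustment). In GENCODE M21, exons of Gm47644 on the opposite strand cover 1644 bases (59.59%) of the Pln exons and those of Cep85l 141 bases, and the strand setting of the counting is not given in the sources used here, so the count of Pln is uncertain by whatever those genes contribute or take. Of the other 9 genes, Atp2a2 and Slc8a1 share exon bases with opposite-strand genes, 1.36% with Gm43361 and 1.57% with AC122399.1.

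Slc8a1, the sodium-calcium exchanger NCX1, lies at chr17:81373105-81738377 on the minus strand. It was narrow in WT, from 166 to 194 cpm with a median of 179, and wide in cmGch1 KO, from 139 to 245 cpm with a median of 203. In cmGch1 KO 4 libraries were above every WT library and replicate 1 was below every WT library. Means were 180 ± 10.4 and 199 ± 36.6 cpm (SD, n = 6 each). The log2 fold change of 0.15 (SE 0.11, interval -0.09 to 0.38, edgeR FDR = 0.705 after Benjamini-Hochberg adjustment) was 0.02 without the 2 libraries of high Xist, which held the 2 highest values, and 0.22 without both libraries of number 1.

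Camk2d, the main calcium/calmodulin-dependent kinase II gene of the heart by common account, phosphorylates phospholamban and the release channel and lies at chr3:126596302-126846326 on the plus strand. It ran from 123 to 163 cpm in WT (median 150) and from 139 to 165 cpm in cmGch1 KO (median 154). The groups lay over each other, and its log2 fold change of 0.06 (SE 0.08, interval -0.11 to 0.23, edgeR FDR = 0.864 after Benjamini-Hochberg adjustment) was the smallest of the 10 in size.

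**Figure D2:**
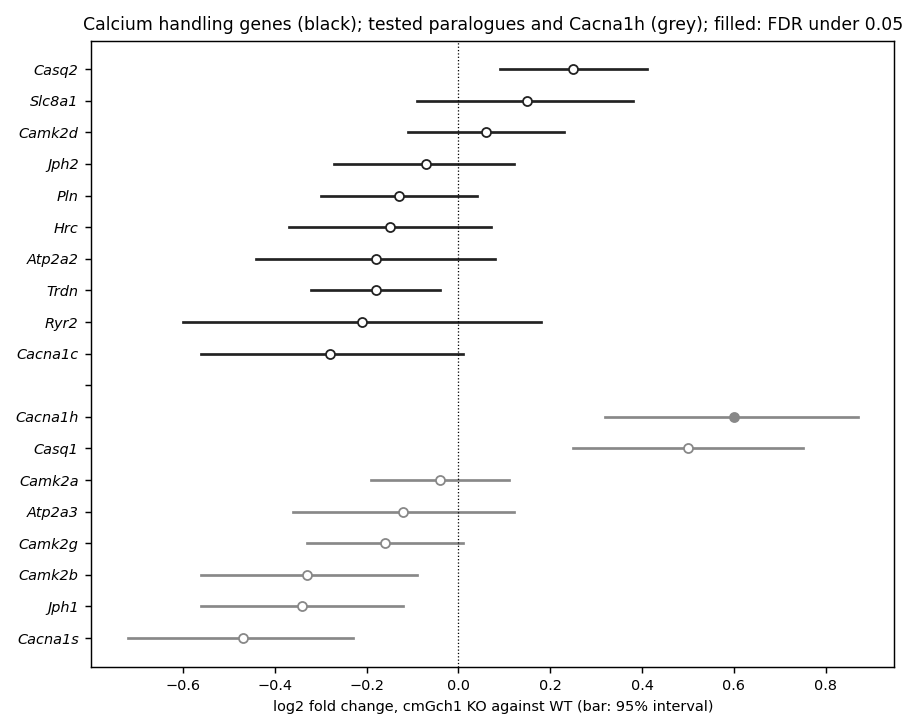
Fitted log2 fold change between cmGch1 KO and WT (x axis) from edgeR, with 95% intervals, for the 10 calcium cycling genes (black) and for tested paralogues and Cacna1h (grey). Filled points have an FDR under 0.05, which holds for Cacna1h alone. The intervals of Casq2 and Trdn leave out 0, on opposite sides.

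The 10 genes did not move as 1 block across libraries. Of the cmGch1 KO libraries, replicate 1 was the lowest of all 12 for 6 genes (Atp2a2, Ryr2, Slc8a1, Cacna1c, Jph2, Hrc) and the highest for Pln and Casq2. Replicate 2 was the lowest for 2 and the highest for 2, Slc8a1 and Jph2. WT replicate 2 was the highest for Ryr2 and Cacna1c, the genes with the largest spread in WT. The 4 libraries with the least Ryr2 were also the 4 in which transcripts of long exon length were lowest in general. Over the 1120 tested genes with the longest exon length, the median deviation from the mean of all libraries was -0.22 in cmGch1 KO replicate 1, -0.18 in WT replicate 1, -0.15 in cmGch1 KO replicate 2 and -0.14 in WT replicate 4 on the log2 scale, against 0.17 in WT replicates 2 and 6. Over the 1120 shortest it was 0.33 in cmGch1 KO replicate 1 and 0.25 in WT replicates 1 and 4. The part of this length pattern in the values of single genes was not tested.

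**Figure D3:**
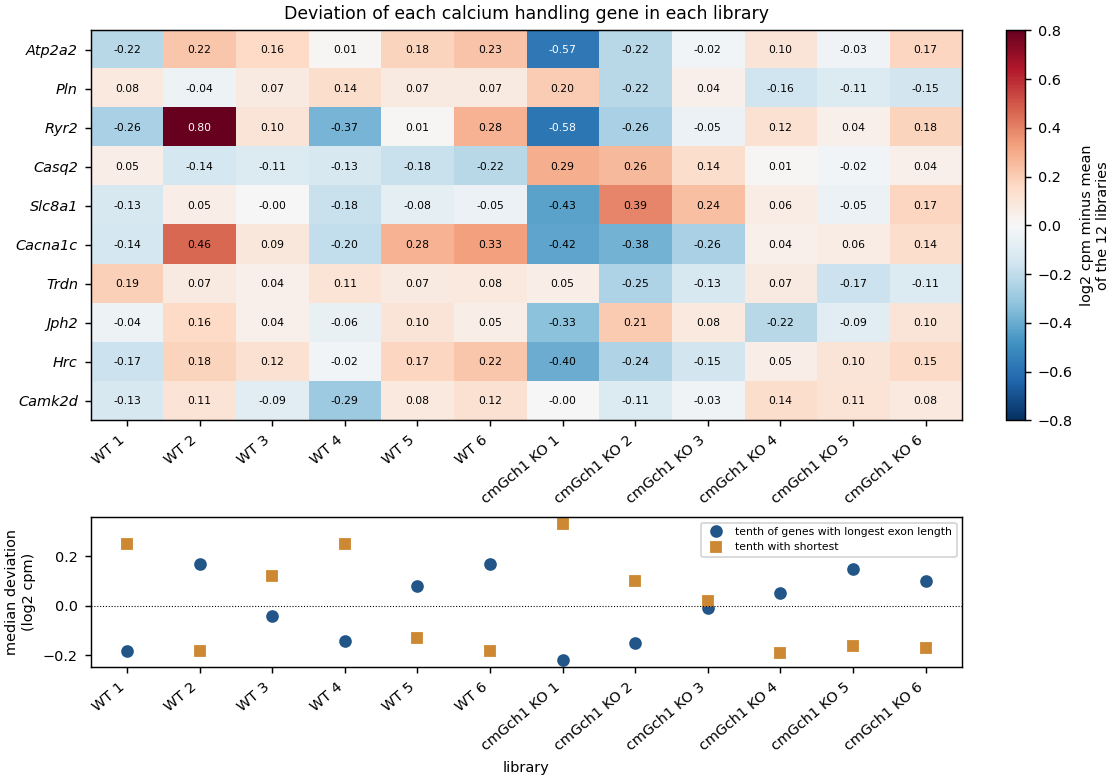
Upper panel: log2 cpm of each calcium cycling gene minus its mean over the 12 libraries, with red above and blue below the mean. Lower panel: median deviation of the tenth of tested genes with the longest (circles) and the shortest (squares) exon length in the same libraries. Ryr2 runs from -0.58 in cmGch1 KO replicate 1 to 0.80 in WT replicate 2, and the same libraries lie at -0.22 and 0.17 for long genes.

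Ratios between these genes within a library do not depend on the scaling, and 4 were compared. Counts of Slc8a1 per count of Atp2a2, the exchanger against the pump, ranged from 0.0108 to 0.014 in WT (median 0.0116) and from 0.0128 to 0.0201 in cmGch1 KO with a median of 0.0138. Every cmGch1 KO library was above the WT median, and WT replicate 1 alone lay within the cmGch1 KO range. The log2 difference was 0.32 (exact permutation test, two-sided, p = 0.00866, 0.0346 after Benjamini-Hochberg adjustment over the 4 ratios). This call rested on few libraries: without the 2 libraries of high Xist the difference was 0.18 with an adjusted p of 0.152 by the exact permutation test. Leaving out any of WT replicates 2 to 6 or cmGch1 KO replicate 2 also ended it (adjusted exact permutation p from 0.0779 to 0.121), although the difference stayed between 0.23 and 0.37 over all 12 such fits.

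The other 3 ratios did not pass. Pln per Atp2a2, the inhibitor against the pump, was 0.414 ± 0.0618 in WT and 0.443 ± 0.138 in cmGch1 KO (SD, n = 6, adjusted exact permutation p = 0.775). Its cmGch1 KO mean was raised by replicate 1 at 0.713, and without that library the log2 difference went from 0.06 to -0.09. Casq2 per Ryr2, the store buffer against the release channel, was 1.17 ± 0.356 and 1.57 ± 0.478 (log2 difference 0.43, adjusted exact permutation p = 0.238), with all 6 cmGch1 KO libraries above the WT median. This ratio sets 2736 bases of annotated exon against 28790. It was highest in cmGch1 KO replicates 1 (2.38) and 2 (1.88) and WT replicates 1 (1.61) and 4 (1.54), the libraries where long transcripts were lowest. The part of length in this ratio was not tested. Cacna1c per Ryr2, the trigger channel against the release channel, was 0.236 ± 0.0323 and 0.22 ± 0.0194 (log2 difference -0.09, adjusted exact permutation p = 0.496).

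**Figure D4:**
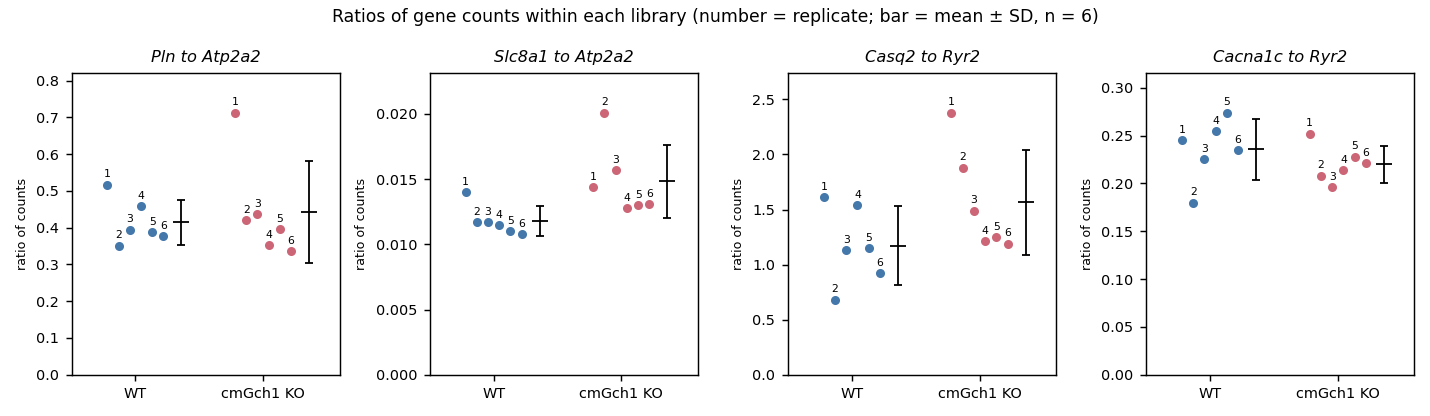
Ratio of counts of 1 gene to those of another within each library (y axes, from 0) for 6 WT and 6 cmGch1 KO libraries, with replicate numbers and the mean ± SD beside the points. For Slc8a1 to Atp2a2, 6 of 6 cmGch1 KO libraries are above the WT median of 0.0116, and for Pln to Atp2a2, cmGch1 KO replicate 1 stands apart at 0.713.

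Most of these genes have relatives, some of them better known from skeletal muscle. Outside the CaMKII and L-type families, the relatives were a small part of the summed level. Per kilobase, Atp2a2 made up 99.9% of the summed SERCA level in WT, Ryr2 99.6% of the ryanodine receptors, Casq2 98.5% of the calsequestrins, Slc8a1 97.4% of the exchangers, Jph2 96.6% of the junctophilins and Cacna1c 79.4% of the L-type pores. Camk2d held 24.0% of the CaMKII level by this measure, below Camk2g (38.5%) and Camk2a (29.1%), a division that depends on its union exon length of 22493 bases. The near-identical parts of these families can share reads, and how the counting assigned such reads is not given in the sources used here, so low relatives of an abundant gene are uncertain.

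Casq1, the skeletal muscle calsequestrin, had a higher fitted value in cmGch1 KO, as Casq2 did. It lay between 8.08 and 12.5 cpm in WT (median 11.8) and between 13.6 and 17.7 cpm in cmGch1 KO (median 15.2). The groups were apart, as for 1.87% of all tested genes. Its log2 fold change of 0.50 (SE 0.12) missed the threshold by edgeR (Benjamini-Hochberg FDR = 0.0573), and passed it with DESeq2 (0.00417), with the surrogate variable (0.0232) and with scaling by library size alone (0.0328). In all it passed in 4 of 25 alternatives, and its adjusted p reached 0.277 without the 2 libraries of high Xist (log2 fold change 0.47).

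Atp2a1, the SERCA pump of fast skeletal muscle, was lower still, from 0.5 to 1.55 cpm in WT (median 0.735) and from 1.38 to 4.05 cpm in cmGch1 KO (median 3.44). Replicate 6 was the only cmGch1 KO library within the WT range. It failed the filter of 3 cpm, and in the fit without a filter its log2 fold change was 1.84 (SE 0.29, edgeR FDR = 0.00336 after Benjamini-Hochberg adjustment), where 0.572% of the genes were called. Per kilobase it made up 0.00994% of the summed SERCA level in WT and 0.0422% in cmGch1 KO, and Atp2a2, the abundant relative, had a fitted value below 0. Of 6 skeletal muscle markers, Myh4 was at 0 in every library. Myh1 went the other way from Atp2a1, averaging 0.015 cpm over the cmGch1 KO libraries, below its WT average of 0.038. Both averages were under the 0.151 cpm that a count of 0 can allow, so this direction is uncertain. Acta1, the skeletal actin that the heart also makes, ran from 204 to 313 cpm in WT (median 279) and from 251 to 677 cpm in cmGch1 KO (median 466), with 5 of 6 cmGch1 KO libraries above every WT library (log2 fold change 0.78, Benjamini-Hochberg FDR = 0.118 by edgeR). Tnnt3 had a WT mean of 0.347 ± 0.135 cpm against 0.723 ± 0.193 cpm (SD, n = 6, exact permutation p = 0.00866), and Mylpf 0.705 ± 0.14 and 1.16 ± 0.52 cpm (exact permutation p = 0.0606), both below the filter. The summed level of the list, 1540 to 2189 cpm in WT and 1654 to 2358 cpm in cmGch1 KO, was mostly Ckm, muscle creatine kinase, at 1605 and 1537 cpm on average. The part of such transcripts in the values of Atp2a1 and Casq1 was not tested.

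Cacna1s, the skeletal muscle L-type pore, had a lower fitted value, as Cacna1c did. It ran from 12.6 to 18.3 cpm in WT (median 16.0) and from 9.82 to 13.6 cpm in cmGch1 KO (median 10.7). Of 6 cmGch1 KO libraries 5 were below every WT library, and replicate 1 alone overlapped. The log2 fold change was -0.47 (SE 0.11, edgeR FDR = 0.068 after Benjamini-Hochberg adjustment), which 6 of 25 alternatives took under the threshold. Its adjusted p over the alternatives ran from 0.00747 to 0.363, the highest without the 2 libraries of high Xist (log2 fold change -0.42). Jph1, which forms junctions in skeletal muscle, was at -0.34 (SE 0.10, edgeR FDR = 0.156 after Benjamini-Hochberg adjustment).

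The promoters of both calsequestrins are shown because both genes had higher fitted values in cmGch1 KO. The sequences are the 250 bases upstream of the RefSeq start on GRCm38.p6, chr3:102086165-102086414 (plus strand) for Casq2 and chr1:172219896-172220145 (minus strand) for Casq1, written 5′ to 3′ with capitals marking E-boxes (CANNTG, which reads alike on both strands), the element bound by basic helix-loop-helix factors.
Casq2: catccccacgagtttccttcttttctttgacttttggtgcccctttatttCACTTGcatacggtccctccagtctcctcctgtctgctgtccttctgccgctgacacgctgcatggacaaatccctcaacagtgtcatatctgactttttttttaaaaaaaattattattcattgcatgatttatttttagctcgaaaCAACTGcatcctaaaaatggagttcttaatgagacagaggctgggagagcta
Casq1: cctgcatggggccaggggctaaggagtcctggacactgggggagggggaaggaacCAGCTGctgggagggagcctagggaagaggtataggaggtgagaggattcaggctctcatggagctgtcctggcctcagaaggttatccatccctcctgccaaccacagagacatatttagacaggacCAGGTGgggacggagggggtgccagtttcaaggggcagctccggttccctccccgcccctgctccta
Each window holds 2 E-boxes, and an E-box is found in 66.2% of the 32851 RefSeq promoters of this length, so its presence sets neither gene apart. Promoters of 8 of the 10 genes were in the table, 11 in all, and 10 of the 11 held an E-box. The windows of Jph2 overlap and Cacna1c has several, so the 11 are not independent. Their share was not tested against the 66.2%. Neither calsequestrin window held a TATA box (TATAAA, in 12.4% of all promoters) or a GATA motif (AGATAA, in 9.99%) on either strand.

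Around the 10 genes, 82 further genes of calcium handling were listed by role, of which 69 were tested. Strit1 was not analysed here, and the other 12 fell below the filter. Of the 69 tested genes 31 had a fitted value above 0 and 38 below, where 5241 of all tested genes were above and 5984 below. Their median was -0.01, equal to that of all tested genes. By edgeR 1 was called (1.12% of all tested genes were), and 7 higher and 5 lower genes had an unadjusted p under 0.05 (7.01% and 4.51% of all tested genes). In the fit without a filter none of the 12 was called by edgeR and 1 had an unadjusted p under 0.05. That gene was Cacng6, a gamma subunit of calcium channels, named here after its values were seen. It ran from 2.72 to 3.48 cpm in WT (median 3.14), around the filter of 3 cpm, and from 1.02 to 2.45 cpm in cmGch1 KO (median 1.68). Its groups were apart, and the log2 fold change was -0.85 (SE 0.2, Benjamini-Hochberg FDR = 0.0762 by edgeR without a filter).

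The called gene was Cacna1h, the pore of a T-type calcium channel, which the ventricle uses mainly before birth. It ran from 8.62 to 13.6 cpm in WT (median 10.8) and from 13.1 to 20.3 cpm in cmGch1 KO (median 16.1). Only cmGch1 KO replicate 1 reached into the WT range, and all 6 were above the WT median. It had a log2 fold change of 0.60 (SE 0.13, edgeR, Benjamini-Hochberg FDR = 0.0399). The call was narrow: of the 12 fits that leave out a library, 2 kept it (those without WT replicate 2 or cmGch1 KO replicate 1), while the value stayed between 0.52 and 0.67. Without the 2 libraries of high Xist it was 0.64 with an adjusted p of 0.121 by the same test.

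**Figure D5:**
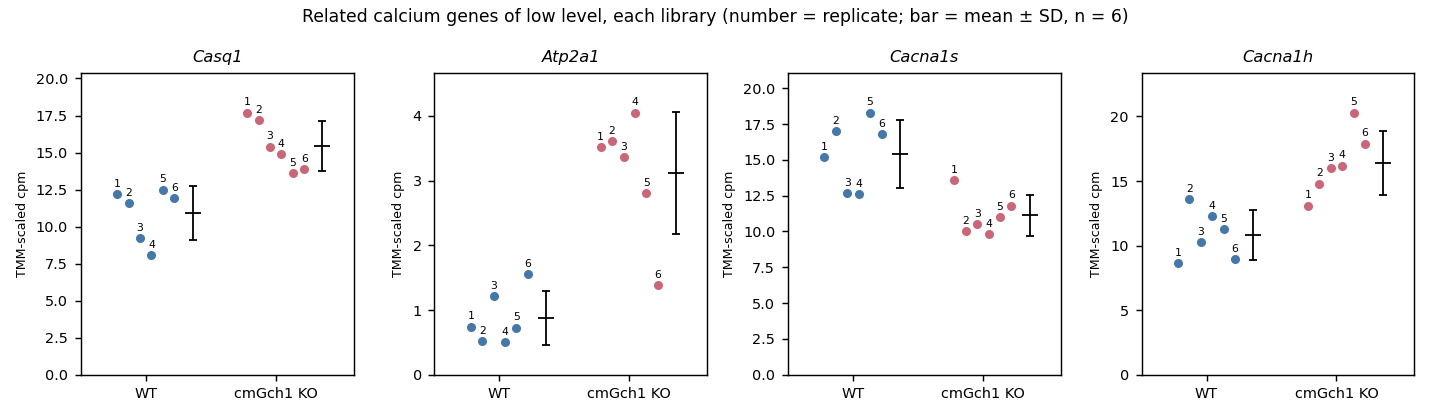
TMM-scaled cpm (y axes, from 0) of 3 skeletal muscle relatives, Casq1, Atp2a1 and Cacna1s, and of the T-type channel gene Cacna1h in 6 WT and 6 cmGch1 KO libraries, with replicate numbers and the mean ± SD beside the points. Casq1 ranges are apart (8.08 to 12.5 and 13.6 to 17.7), and Cacna1s is the one of the 4 with lower values in cmGch1 KO.

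No other role had a called gene. Among L-type channel subunits and inhibitors 4 of 10 tested genes were above 0 and 6 below, with Cacnb1, an auxiliary subunit, at 0.30 (unadjusted p under 0.05) and Rrad, a GTPase that restrains the channel, at 0.46 (SE 0.22, edgeR FDR = 0.442 after Benjamini-Hochberg adjustment). Release channel partners were evenly divided, 5 above and 5 below, with Tmem38b, a counter-ion channel of the store, lowest at -0.21. Of 7 genes of dyad structure, 4 were below 0, among them Cmya5 at -0.35 and Jph1 at -0.34, and Bin1, which shapes transverse tubules, was at 0.26. These values carry unadjusted p under 0.05 apart from that of Rrad, and none passed adjustment by edgeR.

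Pump regulators were also divided, 5 of 10 above and 5 below. Their most extreme value belonged to Sln, sarcolipin, the atrial inhibitor of the pump, at -0.36 with an SE of 0.72. Sln ran from 0.685 to 49.2 cpm in WT and from 4.03 to 23.5 cpm in cmGch1 KO. In WT it was highest in replicate 4 and lowest in replicate 6, and so was the atrial light chain Myl7, at 120.0 and 3.24 cpm. Its sign changed under 4 alternatives, and its value without WT replicate 4 was 0.43.

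Of 7 genes of mitochondrial calcium uptake and release, 6 were below 0, with Mcu, the uniporter pore, at -0.19 (SE 0.08, edgeR FDR = 0.342 after Benjamini-Hochberg adjustment). Of 8 genes of IP3 receptors and store-operated entry, 6 were below 0, and Orai1, the pore of store-operated entry, was at 0.23. Relatives of Camk2d stood at -0.33 for Camk2b, 0.32 for Camk1d and 0.27 for Camkk2, the last 2 being kinases of the same calmodulin-dependent family. Among sarcolemmal calcium pumps Atp2b1 was at -0.11. Of 6 buffers of the store and the cytosol 5 were above 0, with Casq1 the highest. None of these passed adjustment by edgeR. Over all tested genes 5984 were below 0 and 5241 above, and no role was tested as a set.

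Patterns over the 12 libraries were compared by the root mean square difference of log2 cpm standardised over libraries (0 for the same pattern). For each of the 10 genes the nearest gene lay outside the group. Outside genes are far more numerous, so this was likely beforehand, and whether the group holds together was not tested. Among all tested genes, the nearest other member ranked 8 for Atp2a2, 21 for Hrc, 58 for Jph2, 68 for Cacna1c and 82 for Ryr2. It ranked 266 for Slc8a1, 499 for Trdn, 777 for Pln, 1359 for Camk2d and 4901 for Casq2. Hrc and Atp2a2 were the closest pair at 0.315, rank 8 among the neighbours of Atp2a2, whose nearest genes were Tnrc6c (0.269), Mast2 (0.291) and Hspa9 (0.302). The nearest gene to Cacna1c was Fyco1 at 0.166 and the next was Cmya5 of the dyad list at 0.2. Casq2 was the most apart, with Tpi1 (0.276), Gas6 (0.328) and Clic1 (0.334) as its nearest genes and its nearest companion among the 10, Slc8a1, only at 1.31. All genes share library depth and composition in these distances, which are given as a description.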

How the data were processed

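RNA-seq of the left ventricle gave 12 libraries. Per the study's methods, the authors made stranded paired-end libraries with dUTP, aligned them with HISAT2 and counted genes with featureCounts, and the submitters' processing notes name HISAT2, SAMtools and GRCm38. The deposited raw counts per Ensembl gene were used as they stand. A second deposited table holds normalized values on a log2-like scale, made by the authors with a tool not given in the sources used here, and served only as an alternative. Symbols and coordinates are those of GENCODE M21, which matched 26582 of 26921 genes.

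The main test was edgeR 4.0.16 in R 4.3.3 (TMM, cpm over 3 in at least 6 libraries, quasi-likelihood test on genotype, Benjamini-Hochberg adjustment, FDR threshold 0.05, 11225 genes), checked on simulated data. Single values also had an exact permutation test over 924 splits, two-sided, whose smallest possible p is 0.00216. The study's methods take 1 animal as the unit of replication. The lowest count of any of the 10 genes in a library was 3011. A count of 0, taken to allow 3 counts, corresponds to at most 0.151 cpm, for counting error only. Alternatives changed the scaling, the filter, the covariates (sex-linked expression, replicate number, 1 surrogate variable) or the tool (DESeq2 1.42.0, limma 3.58.1, sva 3.50.0), or left out libraries. Named genes were Gch1, sex-linked checks, the 10 genes, their paralogues, cell type markers, listed calcium genes with a p under 0.05 or the largest change of their role, and the 3 nearest genes by pattern, with Cacng6 added after its values were seen. These genes and lists were chosen with earlier results of these data known.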

Additional observations from a re-analysis of the deposited data

Results flagged for a closer look

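Among 64 groups of 6 values examined, 2 held a library far from the rest of its group, where chance would give about 1 in 20 groups. The 2 of 64 are not above that share, so both are given as a description. The ratio of Pln to Atp2a2 counts was 0.713 in cmGch1 KO replicate 1, against 0.437 in the next library of its group. That library had both the highest Pln and the lowest Atp2a2 of all 12. The ratio of Slc8a1 to Atp2a2 counts was 0.014 in WT replicate 1, against 0.0117 in the next WT library, and Atp2a2 was at its WT minimum there. Both libraries also had low levels of transcripts with long exons (median deviation -0.22 and -0.18 on the log2 scale), whose part in these ratios was not tested.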

How the results depend on the processing

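Of the 10 genes, 9 kept the direction of their value under all 25 alternatives. Jph2 turned to 0.01 with scaling by library size alone. The 10 genes gave 0 calls except for 1 higher with the DESeq2 Wald test (Casq2, 0.25) and 1 higher and 1 lower with a surrogate variable (Casq2, 0.24, and Cacna1c, -0.27). Over all genes, 50 were called lower and 76 higher. The counts were 155 and 218 with the DESeq2 Wald test, 331 and 305 with a surrogate variable, 24 and 38 with the sex-linked covariate and 18 and 20 without the 2 libraries of high Xist. With scaling by library size alone 36 were lower and 116 higher. Leaving out 1 library gave 31 to 98 lower and 43 to 118 higher, the extremes being without WT replicates 3 or 5 and without cmGch1 KO replicate 1. The cause of these differences was not tested, and the fits that left out libraries also had fewer of them. For the ratio of Slc8a1 to Atp2a2 the log2 difference of 0.32 became 0.18 without the libraries of high Xist and no longer passed, and 0.23 to 0.37 with 1 library left out. That of Pln to Atp2a2 became -0.09 without cmGch1 KO replicate 1 (range -0.09 to 0.13), and -0.02 without both libraries of number 1, an alternative chosen after seeing the data. Sln turned to 0.20 with limma on the deposited values, 0.20 with the replicate block, 0.17 with a surrogate variable and 0.43 without WT replicate 4 (range -0.63 to 0.43 with 1 library left out).

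The labels give both genotypes the numbers 1 to 6. Deviations of libraries of equal number correlated at 0.676, -0.0945, -0.0775, -0.128, 0.401 and 0.509, and not every library was closest to its own number. Such correlations cannot decide whether the numbers pair the samples, and the main test took the libraries as unpaired. With the number as a replicate block, 76 genes were lower and 112 higher, and none of the 10 genes was called. The ratio of Slc8a1 to Atp2a2 kept its difference of 0.32 with an exact permutation p of 0.0312, the smallest that 6 pairs allow. After Benjamini-Hochberg adjustment over the 4 ratios it was 0.125. At this minimum a ratio could pass only if others of the 4 were low as well. Casq1 (0.51) and Cacna1s (-0.47) passed the threshold with the block.

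Depth was no limit for the 10 genes, whose lowest count was 3011. With 6 libraries a genotype, the 95% interval, widest for Ryr2 (-0.6 to 0.18), sets which differences could be seen.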
